A study of Zea mays with 6 samples.

Results

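The genes described here are 10 maize genes of C4 photosynthesis and of Rubisco, out of 39283 genes in the deposited expression table. They were chosen by identity, as 10 gene identifiers of the B73v3 annotation, with earlier results of these data known, and the rule itself uses no measured value. The genes are pep1 (phosphoenolpyruvate carboxylase, PEPC), ppdk1 (pyruvate, phosphate dikinase, PPDK), mdh6 (NADP-malate dehydrogenase), me3 (NADP-malic enzyme), pck1 (phosphoenolpyruvate carboxykinase), 2 carbonic anhydrase genes, 2 genes of the small subunit of Rubisco and rca1 (Rubisco activase). All 10 were found in the table, and all 10 were paired with a named gene of RefSeq.

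RNA was sequenced from coleoptile tips of wild-type maize and of fdl1 mutants, both in the W22 inbred background. The coleoptile is the sheath that covers the first leaves of a grass seedling, and FDL1 encodes the MYB transcription factor ZmMYB94. Seedlings were grown in a chamber at 28°C. Each group had 3 replicates of 5 tips, 3 to 4 mm long and taken 3 d after germination. Both homozygotes and heterozygotes of the transposon insertion allele fdl1-Mu were collected per the methods, with no zygosity stated for a sample. Whether the samples labelled wild type came from heterozygotes is therefore not known either. According to the labels, tips that looked normal were taken into the fdl1 samples. The samples that carry the mutant label are called the fdl1-labelled group here. The light regime is not given in the sources used here.

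Levels are FPKM, fragment counts scaled to transcript length and to the number of mapped fragments, so they can be set side by side between genes. The deposited table holds 1 pooled value per gene and group, computed by the authors over the replicates. The spread between replicates is therefore not shown by these values. The authors' own test results were not used, so no difference below was checked against replicates here, and no p-value is given. The exception is the genes under other observations, whose names come from the study's annotation of called genes. Read depth is also unknown. A gene was counted as higher or lower when its pooled values differed at least 2-fold and the larger of them reached an FPKM of 1, the minimum used throughout.

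In the C4 cycle of maize leaves, carbonic anhydrase and PEPC fix inorganic carbon in mesophyll cells, and the product is carried as malate to bundle sheath cells. There NADP-malic enzyme and PEP carboxykinase release CO2 beside Rubisco, and PPDK in the mesophyll regenerates the acceptor phosphoenolpyruvate. In leaves the genes of this cycle are induced by light during greening, while other isoforms of the same enzymes serve general metabolism in non-green tissue.

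The table as a whole gave the following frame. FPKM was above 0 for 29150 genes in wild type and for 29062 genes in the fdl1-labelled group, with medians of 5.49 and 5.83 among those genes. FDL1 itself (GRMZM2G056407) was at 4.58 in wild type and 12.7 in the fdl1-labelled group, 2.78-fold higher in the samples that carry the mutant label. A value for the entire gene does not show whether its transcripts carry the insertion, so the labels could not be checked by it. Of 5 endosperm markers, o2, zp1 and zp16 were listed at 0 in both groups, and zp15 and zp27 stayed at or below 0.656. The 3 meristem and leaf primordium markers given here, kn1, lg3 and lg4, were present in both groups, from 9.35 (kn1) to 25.4 (lg3) in wild type and from 9.85 (kn1) to 31.3 (lg3) in the fdl1-labelled group. Of 3 lipid transfer protein genes expressed in the epidermis, ZmLTP1.1 was at 1357 and 828, ZmLTP1.2 at 398 and 250, and ZmLTP1.6 at 894 and 814, in wild type and the fdl1-labelled group. The paper reports strong FDL1 binding at ZmLTP1.2 and ZmLTP1.6, and lipid transfer protein genes among those downregulated in the mutant. Their values therefore cannot be read as the amount of epidermis in the tips. The part of these differences in tissue markers in the results below was not tested. In bulk tips, fewer cells of a type and less RNA per cell cannot be told apart.

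Of the 10 genes, ppdk1 and mdh6 lay above the median of the genes above 0 in both groups, and the others lay below it. The 10 genes summed to 32.0 FPKM in wild type and 30.1 in the fdl1-labelled group, and ppdk1 alone made up 16.2 of the wild-type sum. In wild type the order from high to low was ppdk1, mdh6, me3, ssu1, the second small subunit gene GRMZM2G113033, the carbonic anhydrase gene GRMZM2G348512, pck1, rca1, pep1 and the carbonic anhydrase gene GRMZM2G121878. In the fdl1-labelled group mdh6 stood above ppdk1, ssu1 above me3 and pep1 above rca1, and the other positions were as in wild type. Without replicate values it cannot be said which neighbours in this order differ beyond their spread.

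**Figure D1:**
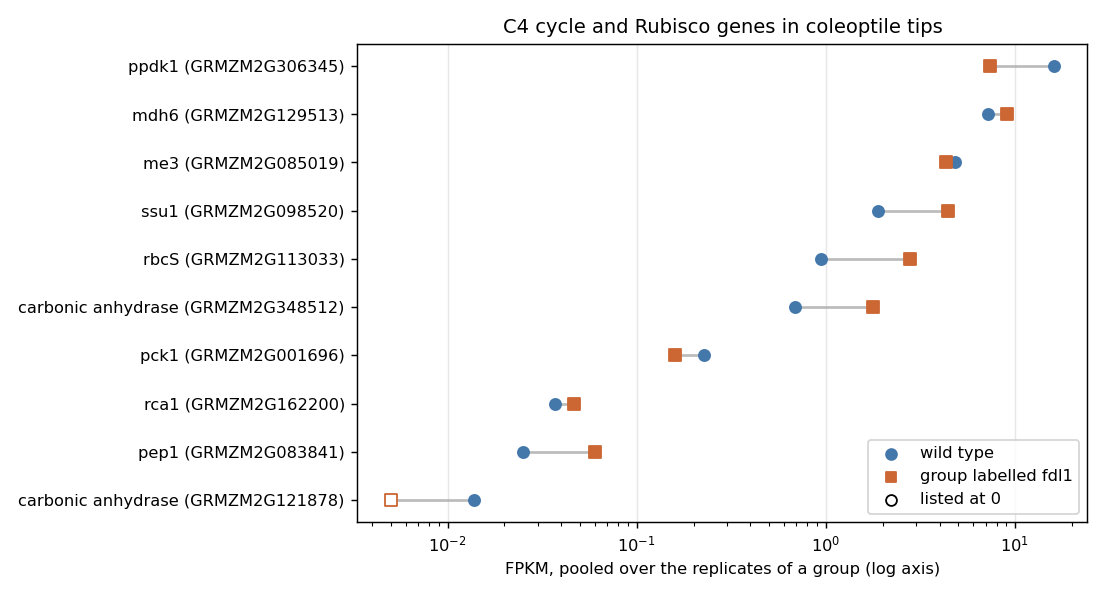
FPKM of the 10 genes on a log axis, with circles for wild type and squares for the fdl1-labelled group, each the authors' pooled value. An open symbol at the left edge marks a gene listed at 0. ppdk1 is the highest gene in wild type at 16.2 and is at 7.43 in the other group, and both Rubisco small subunit genes lie to the right of their wild-type values.

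Against wild type, 3 of the 10 genes were at least 2-fold higher in the fdl1-labelled group (both Rubisco small subunit genes and the carbonic anhydrase gene GRMZM2G348512), and 1 was at least 2-fold lower (ppdk1). Among all 21381 genes that reached the minimum, 4.69% were at least 2-fold higher and 1.36% were at least 2-fold lower. The genes me3 and mdh6 reached the minimum and differed by less than 2-fold, and 4 genes stayed below it in both groups (pep1, pck1, rca1 and GRMZM2G121878). GRMZM2G348512 and GRMZM2G113033 reached an FPKM of 1 only in the fdl1-labelled group, so they passed the minimum through the group in which they were high, and the count of 3 includes them for that reason. Over the 9 genes above 0 in both groups, 6 were higher and 3 lower in size alone, with a median log2 ratio of 0.34 against 0.02 over all 28014 genes above 0 in both.

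Ratios spread more widely among genes of low level. Among 5638 genes with a mean FPKM from 1 to under 5, 8.16% were at least 2-fold higher and 2.57% at least 2-fold lower, and their log2 ratios had 5th and 95th percentiles of -0.78 and 1.22. Among 8309 genes with a mean FPKM from 5 to under 20, the shares were 2.98% and 0.686%, and the percentiles were -0.54 and 0.80. By mean level both small subunit genes, GRMZM2G348512 and me3 belong to the lower range, and ppdk1 and mdh6 to the higher one. Against the 95th percentile of 1.22 in the lower range, ssu1 was level with it at a log2 ratio of 1.23, and GRMZM2G348512 at 1.38 and GRMZM2G113033 at 1.56 lay above it. GRMZM2G348512 and GRMZM2G113033 reached the minimum only in the group where they were high, so their place above the percentile is a description and no support. The mean FPKM of GRMZM2G348512 was 1.24, near the lower end of that range.

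**Figure D2:**
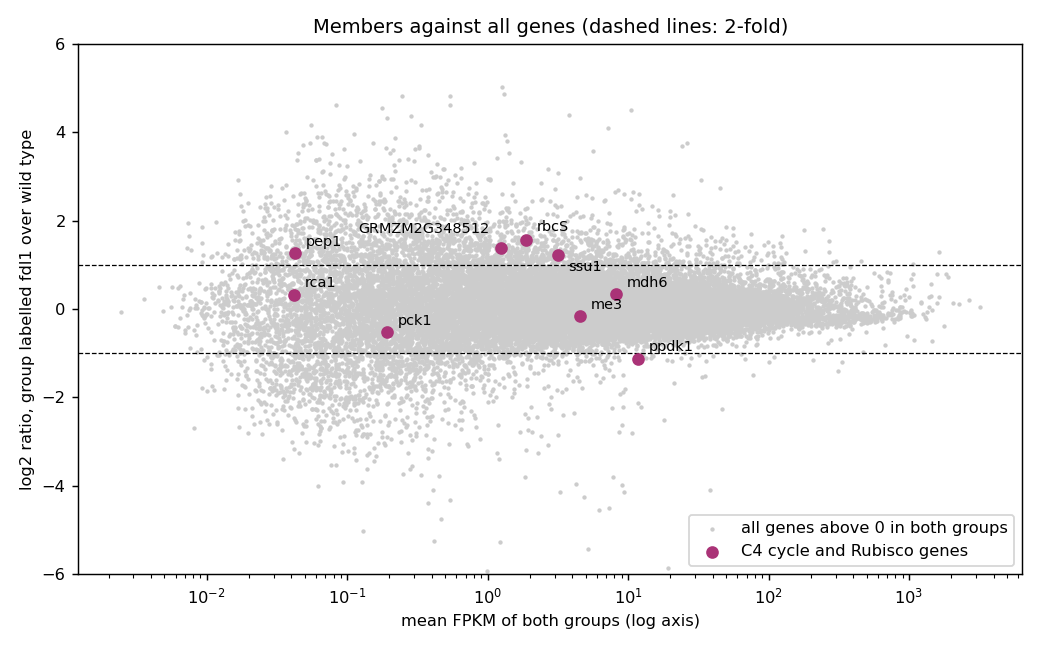
Log2 ratio of the fdl1-labelled group over wild type against the mean FPKM of both groups (log axis), with grey points for all genes above 0 in both groups and purple points for the 9 C4 and Rubisco genes with a ratio. Dashed lines mark 2-fold, and 5 genes beyond a log2 ratio of 6 in either direction lie outside the axis. ppdk1 lies just under the lower line at -1.12, and ssu1, rbcS (GRMZM2G113033) and GRMZM2G348512 lie just above the upper line, as does pep1 at 1.27, which is below the minimum.

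The first step of the cycle, hydration of CO2, is carried out by carbonic anhydrase. GRMZM2G348512 (chr3:215506034-215518935, B73v3, as are all coordinates here) was at 0.685 in wild type and 1.79 in the fdl1-labelled group, a ratio of 2.61-fold and a log2 ratio of 1.38. The identifier is paired with 2 RefSeq genes, so its value may combine more than 1 gene model. Its neighbour GRMZM2G121878 (chr3:215547876-215555228) had a wild-type FPKM of 0.0138 and a listed value of 0 in the fdl1-labelled group, and no ratio is given. The pair lies in tandem 28940 bases apart with no other gene of the table in between, and in both groups nearly all of its signal came from GRMZM2G348512.

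PEPC fixes bicarbonate into a C4 acid. The C4 isoform pep1 (GRMZM2G083841, chr9:62306266-62311673), among the most abundant transcripts of a green maize leaf, was near the bottom of the table here, at 0.0251 in wild type and 0.0603 in the fdl1-labelled group. Of genes above 0, 3.72% were lower than pep1 in wild type and 8.06% in the fdl1-labelled group. Cuffdiff marked pep1 as having too few reads for its own test, and its log2 ratio of 1.27 was 0.05 after 1 was added to both values. PEPC transcript was present in quantity from other isoforms, since pep7 was at 152 and 227 and pep4 at 94.6 and 151 in wild type and the fdl1-labelled group. The gene pep1 thereby made up 0.0102% of the summed FPKM of these 3 PEPC genes in wild type and 0.0159% in the fdl1-labelled group.

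Malate is formed in mesophyll chloroplasts by NADP-malate dehydrogenase. The gene mdh6 (GRMZM2G129513, chr1:203209824-203213983) was at 7.18 in wild type and 9.09 in the fdl1-labelled group, a log2 ratio of 0.34. This difference is within the 5th to 95th percentile range of genes of like level.

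PPDK converts pyruvate back to phosphoenolpyruvate. The gene ppdk1 (GRMZM2G306345, chr6:146179404-146189965) was at 16.2 in wild type and 7.43 in the fdl1-labelled group, 2.18-fold lower, with a log2 ratio of -1.12. It was above 72.0% of the genes above 0 in wild type and above 54.5% in the fdl1-labelled group. This was the only gene of the 10 called lower, and it lay outside the 5th percentile of -0.54 for genes with a mean FPKM from 5 to under 20. RefSeq lists names of both a C4 and a cytosolic PPDK for this single gene, which is known to give a long chloroplast transcript and a shorter cytosolic transcript from a second promoter. Which of these transcripts was measured cannot be told from a single value per gene. The second PPDK gene, PPDK2, was at 0.693 and 0.389, lower in the same direction but below the minimum, and ppdk1 stood above it 23.3-fold in wild type and 19.1-fold in the fdl1-labelled group. The regulatory protein gene pdrp1, whose product switches PPDK on and off, was at 10.7 and 14.0, a log2 ratio of 0.38.

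In bundle sheath chloroplasts NADP-malic enzyme releases CO2 from malate. The C4 isoform me3 (GRMZM2G085019, chr3:7276387-7281737) was at 4.83 in wild type and 4.32 in the fdl1-labelled group, a log2 ratio of -0.16. Another isoform, me2, was far more abundant at 239 and 292, which is 49.6-fold and 67.6-fold above me3. The gene me4 was at 0.178 and 0.164. Of the summed FPKM of these 3 NADP-malic enzyme genes, which may not be the whole family, me3 made up 1.98% in wild type and 1.46% in the fdl1-labelled group.

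PEP carboxykinase offers a further route of decarboxylation in the bundle sheath. The gene pck1 (GRMZM2G001696, chr1:35744406-35748813) was at 0.228 in wild type and 0.159 in the fdl1-labelled group. Its log2 ratio of -0.52 is that of a gene below the minimum in both groups. The other gene, pck2, was at 5.38 and 7.28, above pck1 23.6-fold in wild type and 45.9-fold in the fdl1-labelled group.

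**Figure D3:**
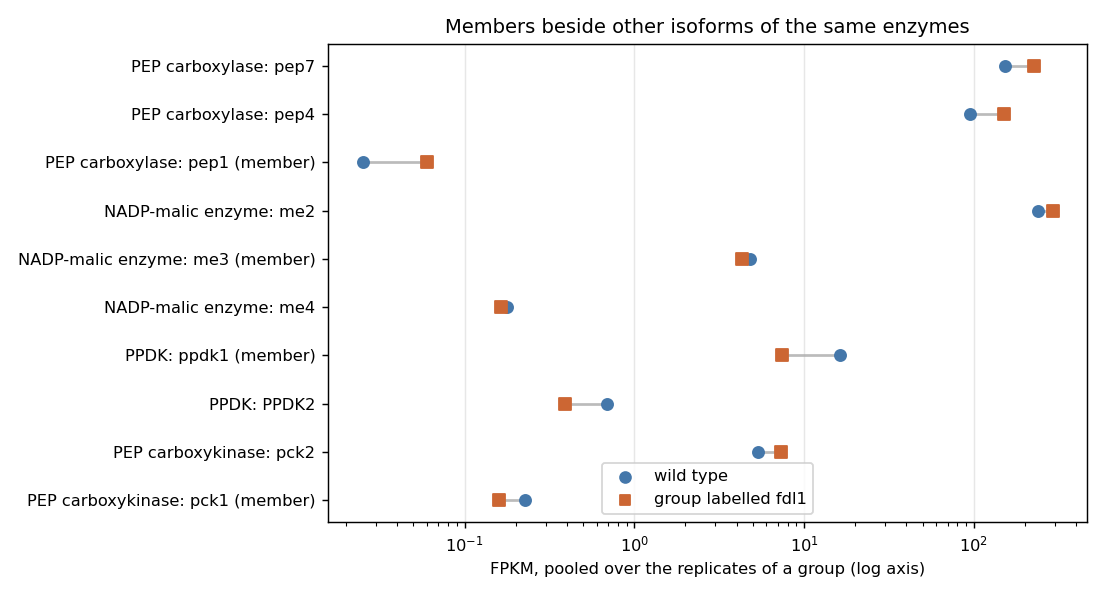
FPKM on a log axis of the C4 genes pep1, me3, ppdk1 and pck1 beside other genes of the same 4 enzymes, with circles for wild type and squares for the fdl1-labelled group, each the authors' pooled value. For PEPC, NADP-malic enzyme and PEP carboxykinase another isoform lies above the C4 gene in both groups, whereas ppdk1 lies above PPDK2.

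Rubisco fixes the released CO2, and its small subunit is encoded in the nucleus. The gene ssu1 (GRMZM2G098520, chr4:190228051-190230534) was at 1.88 in wild type and 4.41 in the fdl1-labelled group, 2.34-fold higher with a log2 ratio of 1.23. The second gene, GRMZM2G113033 (named rbcS in RefSeq, chr2:143429392-143430581), was at 0.949 and 2.79, 2.94-fold higher with a log2 ratio of 1.56. Small subunit genes of a plant are alike in sequence, so reads may have been shared between the pair, and their values may not be independent. Their sum was 2.83 in wild type and 7.20 in the fdl1-labelled group, and ssu1 was the higher of the pair in both groups, by 1.98-fold and 1.58-fold. In a green leaf small subunit transcripts are among the most abundant. The ratio of ppdk1 to the small subunit sum was 5.71 in wild type and 1.03 in the fdl1-labelled group. This sets the gene called lower against a pair called higher, so the difference follows from those calls and is no further result. The large subunit is encoded in the plastid, and the deposited table holds genes of the 10 nuclear chromosomes only.

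Rubisco activase removes inhibitory sugar phosphates from Rubisco. The gene rca1 (GRMZM2G162200, chr4:693736-696087) was at 0.0371 in wild type and 0.0466 in the fdl1-labelled group, with too few reads for a test in Cuffdiff. The neighbouring rca3, 596 bases away, was listed at 0 in both groups.

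Grouped by the cell type in which the C4 cycle of leaves uses them, the genes showed no single direction. Cell types were not separated in these tips, so mesophyll and bundle sheath below refer to green leaves. Of the genes that reached the minimum, the mesophyll genes were ppdk1 (lower), mdh6 (log2 ratio 0.34) and GRMZM2G348512 (higher), and the bundle sheath genes were both small subunit genes (higher) and me3 (log2 ratio -0.16). The mesophyll genes pep1 and GRMZM2G121878 and the bundle sheath genes pck1 and rca1 stayed under an FPKM of 1 in both groups.

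Genes related to the same pathway were taken from 6 name-based lists, with 44 genes in all. Matching used symbols and synonyms only, so the lists are incomplete and their counts and medians do not cover whole families. The carbonic anhydrase gene GRMZM2G094165 and CAB1, given under other observations, were not matched. Of 12 other C4 isoforms and accessory genes, 9 reached the minimum, 2 were at least 2-fold higher and 0 were lower. Both were PEPC kinase genes, which phosphorylate PEPC: PPCK3 was at 0.801 in wild type and 2.85 in the fdl1-labelled group, and PPCK1 at 3.01 and 6.48. Of these PPCK3 reached the minimum only in the fdl1-labelled group. The other kinase genes, PPCK2 (11.5 and 11.7) and PPCK4 (3.57 and 2.77), differed by less than 2-fold. Of 2 Calvin cycle genes, gpa1, a chloroplast glyceraldehyde-3-phosphate dehydrogenase subunit, was higher (1.36 and 3.03), and gpb1 was below the minimum at 0.295 and 0.244.

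Of 6 light-harvesting chlorophyll a-b binding genes, which encode antenna proteins, 4 reached the minimum and 2 were higher. The gene lhcb7 was at 11.7 in wild type and 35.0 in the fdl1-labelled group, and lhcb5 at 2.40 and 6.83. The gene lhcb6 was just under the 2-fold limit at 2.19 and 4.26, and lhcb4 was at 1.89 and 1.77. Of 15 photosystem and electron transport genes, 9 reached the minimum, 2 were higher and 0 lower. These were psb29 (4.70 and 10.9) and psbs1 (2.27 and 4.72), the latter a photosystem II protein of photoprotective energy dissipation. The most abundant gene of this list, the ferredoxin gene fdx3, was at 307 and 354, PSA2 at 10.5 and 10.4, and fdx5 at 1.95 and 1.59. Ferredoxin genes entered the list by symbol, and forms of green and of non-green tissue were not separated, so the level of fdx3 is not a measure of photosynthetic electron transport.

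None of 3 chlorophyll and tetrapyrrole synthesis genes and none of 6 greening regulators, of which 5 reached the minimum, was called higher or lower. The gene oy1, a magnesium chelatase subunit, was at 31.9 in wild type and 24.8 in the fdl1-labelled group. The gene elm1, whose product makes the phytochrome chromophore, was at 10.7 and 9.46, and por at 12.05 and 13.8. The photoreceptor gene phyA2 was the most abundant regulator at 89.1 and 65.1. The chloroplast development regulator glk1 was at 1.76 and 1.03, PhyB1 at 10.2 and 9.67, and PIF4, just under the 2-fold limit, at 0.808 and 1.61. Median log2 ratios over the genes of a list above 0 in both groups were 0.38 for other C4 isoforms and accessory genes and 0.44 for Calvin cycle genes. For light-harvesting genes the median was 1.101, the ratio of a gene below the minimum (1.24 over the 4 that reached it). It was 0.45 for photosystem and electron transport genes (0.21 over the 9 that reached the minimum). For chlorophyll and tetrapyrrole synthesis genes the median was -0.18, the ratio of elm1 itself, with oy1 at -0.36 and por at 0.19. For greening regulators the median was -0.37 (-0.30 over the 5 that reached the minimum). Beside the counts of these lists, 4.69% of all genes that reached the minimum were higher and 1.36% lower. PPCK3, gpa1, psbs1, lhcb5 and PPCK1 had a mean FPKM from 1 to under 5, where 8.16% of genes were higher. Of these, gpa1 (log2 ratio 1.16), PPCK1 (1.11) and psbs1 (1.05) lay below the 95th percentile of 1.22 in that range. The ratios of lhcb5 (1.51) and PPCK3 (1.83) lay above it, and PPCK3 reached the minimum only in the group where it was high. By mean level psb29 belongs to the range from 5 to under 20, and lhcb7 lies above that range.

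**Figure D4:**
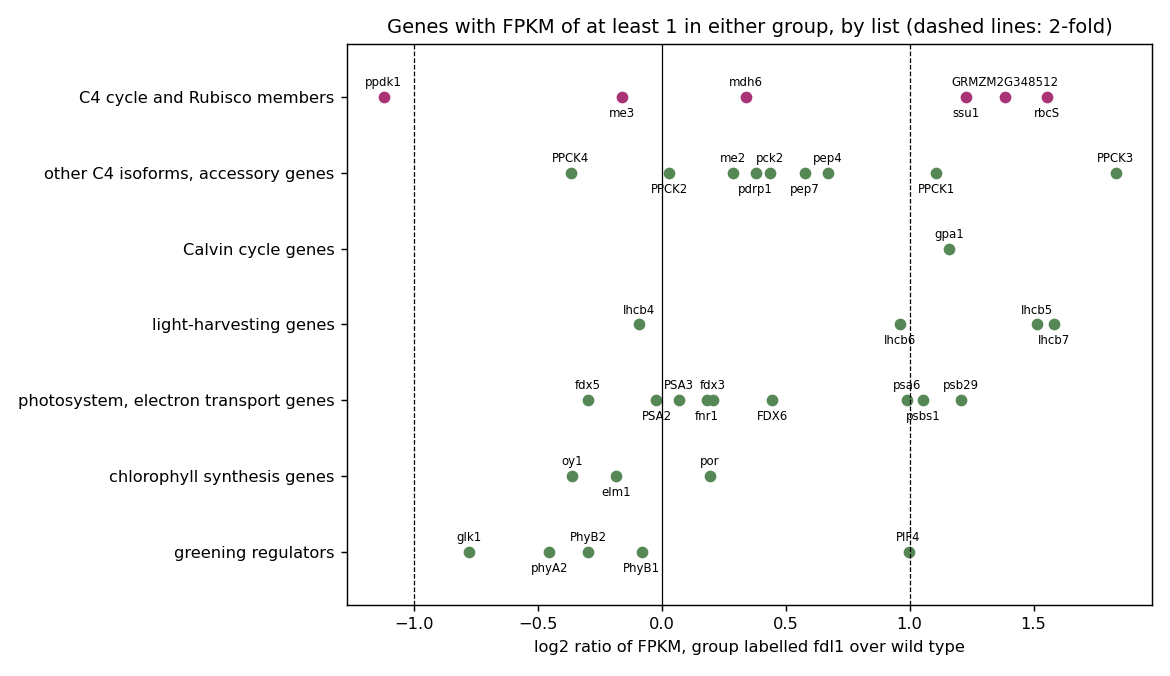
Log2 ratio of FPKM, group labelled fdl1 over wild type, for genes that reached an FPKM of 1, with 1 row per list and dashed lines at 2-fold. The Rubisco small subunit genes and GRMZM2G348512 lie past the upper line, as do lhcb5, lhcb7, psb29, psbs1, gpa1, PPCK1 and PPCK3, while ppdk1 is the sole point past the lower line.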

How the data were processed

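RNA from 3 wild-type and 3 fdl1 replicates was made into stranded mRNA libraries. Per the submitters' notes reads were processed with Trimmomatic, TopHat2 2.1.1 and Cuffdiff, and mapped to B73v3, so W22 reads were aligned to another inbred. Whether strand was used in counting is not given in the sources used here. The deposited FPKM values were pooled by the authors over the replicates of each group, giving 1 value per gene and group for 39283 genes, of which 16143 had too few reads for a test and 1 was left out as having too many. The table also holds the authors' own fold changes, test statistics and p and q values, which were not used. Low FPKM values were multiplied by the genomic span of the locus, introns included, to look for steps of whole reads (the fullest of 60 bins held 7.80% of 3284 values). Transcript lengths were not used and the values are pooled over replicates, so such steps could be blurred. Read depth was not recovered.

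Starts of loci were increased by 1, after which 90.6% of 1999 starts equalled gene starts of another list of the study. Gene names came from synonyms in a RefSeq annotation of the B73 genome, used for names only. Ratios were calculated without a pseudocount, and a gene was called at a fold of 2 where the larger FPKM was at least 1 (Python 3.11.15, pandas 2.3.3). The text names all 10 genes, FDL1 and, of each list, the gene highest in wild type and the 2 highest and 2 lowest ratios; other isoforms of the same enzymes, gpb1 and the tissue markers were named besides. The genes and lists were chosen with earlier results of these data known. Alternatives were other folds, FPKM minimums, pseudocounts and centring. Promoter motifs and protein identity were not analysed here. A further tissue marker is withheld here, for reasons unrelated to its values.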

Additional observations from a re-analysis of the deposited data

How the results depend on the processing

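No paired analysis was possible because the table holds 1 pooled value per group, and for the same reason no replicate could be left out. The count of 3 genes at least 2-fold higher became 0 at a fold of 3, 0 with an FPKM of at least 5, 0 with a pseudocount of 1 and, in an alternative added after seeing the data, 1 (ssu1) where both groups had to reach 1. Without a minimum it was 4, with pep1. The count of 1 lower became 0 at a fold of 3 and 2 without a minimum, the second being GRMZM2G121878, listed at 0. The median log2 ratio of 0.34 was 0.22 with a pseudocount of 0.1, 0.031 with a pseudocount of 1 and 0.78 over genes with an FPKM of at least 1. With a pseudocount of 1, the count of higher genes was 1 for other C4 isoforms, 0 for Calvin cycle genes and 1 for photosystem genes, the last being 5 without a minimum. At a fold of 1.5, 1 greening regulator was higher and 1 lower. Adding the same pseudocount to both values shrinks the ratios of low genes and cannot turn their direction. The median for Calvin cycle genes was 1.16 over the single gene that reached the minimum. The low level of most of the C4 and Rubisco genes and the missing replicate values limit every statement above.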

Other observations

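The table held 3 further genes of photosynthesis or of its light protection, which were chosen after their values were seen and whose names come from the study's annotation of called genes, so that no direction can be read from the choice. The carbonic anhydrase gene GRMZM2G094165 was at 3.16 FPKM in wild type and 8.73 FPKM in the fdl1-labelled group, above GRMZM2G348512 and GRMZM2G121878 in both. CAB1 (AC207722.2_FG009), a chlorophyll a-b binding protein gene, was at 21.4 and 78.0. GRMZM2G355752, annotated as an early light-induced protein, was at 48.6 and 109.6.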
